A study of Mus musculus with 6 samples.

Results

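The 10 genes described here are direct transcriptional targets of YAP and TAZ, the growth-promoting coactivators of the Hippo pathway: Ccn1, Ccn2, Ankrd1, Amotl1, Amotl2, Ajuba, Lats2, Axl, Crim1 and F3. They were chosen by name, as genes widely used to read YAP and TAZ activity, but with earlier results of these data known. All 10 were found among the 31384 genes of the count table by Ensembl identifier, with Ccn1 and Ccn2 listed in older annotation as Cyr61 and Ctgf. All 10 also passed the filter on low counts that left 16121 genes for testing.

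The study asked whether lovastatin, a statin that inhibits the first committed enzyme of cholesterol and isoprenoid synthesis, can take the place of GDNF in sustaining cultured mouse spermatogonial stem cells. Bulk RNA was sequenced from 6 libraries in 3 groups of 2. In the LOVA group 5 uM lovastatin stood in for GDNF, the NTC group had neither, and the PTC group had 10 ng/mL recombinant rat GDNF. All 3 groups came from 1 mouse spermatogonial stem cell line whose strain and genotype are not given, and all received 10 ng/mL EGF, LIF and 10 ng/mL FGF2. All were grown over mouse embryonic fibroblasts that mitomycin C keeps from dividing, and all were collected on day 18. Embryonic fibroblasts are part of the culture, and nothing in the protocols says that they were removed before RNA was taken. Whether the libraries of 1 group came from separate cultures is not stated, so each p measures the spread between these libraries, which may be technical.

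Total counts per library ranged from 12454671 to 22668087, and a floor of 3 counts stood at 0.128 to 0.258 CPM (counts set to a common library total, scaled by TMM), which covers counting error only. The germ cell label was checked against 20 pan-germ-cell markers, all of them tested and none at 0 in any group. Within each group the A library is given before B. These markers took 0.385% and 0.214% of counts in LOVA, 0.321% and 0.213% in NTC, and 0.565% and 0.561% in PTC. A list of 20 fibroblast markers, also without a gene at 0, took 1.40% and 2.60% in LOVA, 1.59% and 2.58% in NTC, and 0.112% and 0.539% in PTC. The fibroblast share was thus lowest in PTC A and higher in B than in A within every group. The 10 macrophage markers took 0.0412% and 0.0488% in LOVA, 0.186% and 0.232% in NTC and 0.0272% and 0.0232% in PTC. Lists for Sertoli, Leydig and endothelial cells each stayed at or below 0.0155% of counts in every library.

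In mammalian cells the kinases of the Hippo pathway phosphorylate YAP and its paralogue TAZ (encoded by Wwtr1) and keep them in the cytoplasm. When the kinases are quiet, or when cells are spread and under tension, YAP and TAZ enter the nucleus and bind TEAD factors on DNA. In other cell types statins are known to lower nuclear YAP and TAZ by blocking the pathway that makes isoprenoid lipids. Several targets feed back on the pathway: LATS2 is a kinase that phosphorylates YAP, the angiomotin-like proteins hold YAP outside the nucleus, and the LIM protein AJUBA binds and restrains the LATS kinases.

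The promoters are shown first because YAP and TAZ reach DNA through TEAD factors, whose binding was not measured here. RefSeq promoter windows (build GRCm38.p6) were matched by symbol for 9 of the 10 genes, in 10 windows, since Lats2 has a pair of starts. The 250 bases before each start were searched on both strands for the TEAD motif GGAATG, which reads CATTCC on the other strand. It was found upstream of 6 of the 9 genes (Ccn1, Ankrd1, Amotl2, Ajuba, Axl and Crim1), while 12.6% of 32851 mouse promoter windows of the same length hold it. Ankrd1 and Ajuba held it in 2 copies each, as 1.02% of all windows do. The AP-1 motif TGANTCA, which reads the same way on both strands, was found in F3 alone, in 2 copies, against 6.75% of all windows with at least 1, and it overlapped no TEAD match. The CArG box, the motif of SRF, was in none of the 9 genes and is in 1.47% of all windows. Each match is a description of letters in a short window, and enhancers farther away were not searched.

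The windows of 5 genes are printed as examples, picked with the comparisons below known. Ccn1, Ankrd1 and Amotl2 hold a TEAD match and rose without GDNF. Ajuba holds a pair of matches and did not pass the test, and F3 holds none and had the largest log2 fold change. Of the genes not printed, Axl holds a match and Amotl1 none, and both rose. Crim1 holds a match and Lats2 none, and neither passed the test. Whether the motif goes with the changes was not tested. Capitals mark the TEAD matches in the first 4 sequences and the AP-1 matches in F3, and each sequence runs 5′ to 3′ along the gene, ending 1 base before its start. Starts here are those of the RefSeq windows, which can differ from the ends of the gene spans given below from GENCODE. The windows of Ankrd1 and Amotl2 lie inside those spans, and gaps part those of Ccn1 and Ajuba from theirs. The match lies 103 bases before the start in Ccn1 and 65 bases before it in Amotl2. In Ankrd1 the matches lie 210 and 123 bases before the start, in Ajuba 186 and 164, and in F3 the AP-1 matches lie 146 and 135 bases before it.
Ccn1 (chr3:145649986-145650235, minus strand): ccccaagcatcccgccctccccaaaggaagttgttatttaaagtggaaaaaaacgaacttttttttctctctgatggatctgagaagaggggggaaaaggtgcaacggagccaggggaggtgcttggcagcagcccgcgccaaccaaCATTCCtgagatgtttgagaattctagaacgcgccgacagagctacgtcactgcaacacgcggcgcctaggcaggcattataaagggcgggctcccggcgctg
Ankrd1 (chr19:36119845-36120094, minus strand): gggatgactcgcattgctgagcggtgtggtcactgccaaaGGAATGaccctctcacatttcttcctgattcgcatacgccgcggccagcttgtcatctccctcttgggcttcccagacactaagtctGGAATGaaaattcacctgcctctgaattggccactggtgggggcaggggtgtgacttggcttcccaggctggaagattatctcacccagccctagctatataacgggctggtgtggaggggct
Amotl2 (chr9:102717554-102717803, plus strand): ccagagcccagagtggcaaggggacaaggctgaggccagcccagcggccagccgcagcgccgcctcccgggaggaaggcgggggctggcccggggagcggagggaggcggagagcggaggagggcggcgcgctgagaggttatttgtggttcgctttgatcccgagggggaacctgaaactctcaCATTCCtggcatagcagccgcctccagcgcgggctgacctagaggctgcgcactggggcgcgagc
Ajuba (chr14:54577662-54577911, minus strand): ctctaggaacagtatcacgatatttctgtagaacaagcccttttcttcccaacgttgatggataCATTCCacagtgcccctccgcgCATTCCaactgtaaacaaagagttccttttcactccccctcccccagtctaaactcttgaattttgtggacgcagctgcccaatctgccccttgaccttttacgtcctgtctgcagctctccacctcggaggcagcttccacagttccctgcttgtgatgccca
F3 (chr3:121723287-121723536, plus strand): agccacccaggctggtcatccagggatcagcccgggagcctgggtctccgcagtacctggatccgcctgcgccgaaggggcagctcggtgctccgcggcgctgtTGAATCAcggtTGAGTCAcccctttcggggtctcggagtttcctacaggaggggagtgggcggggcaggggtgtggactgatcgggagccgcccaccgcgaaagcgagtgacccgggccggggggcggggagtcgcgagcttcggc

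**Figure D1:**
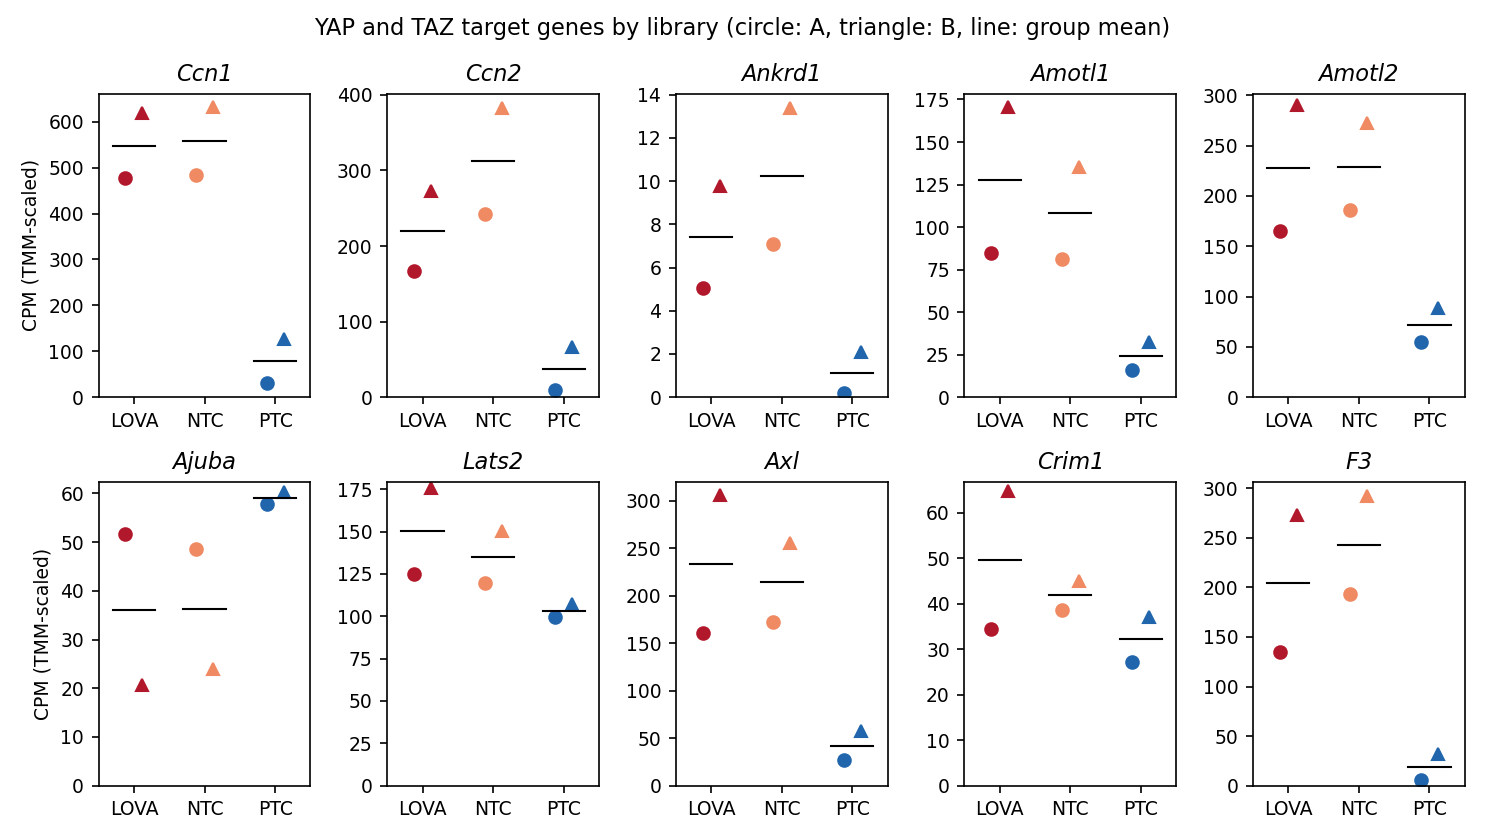
CPM of the 10 YAP and TAZ target genes in each of the 6 libraries, each panel on its own linear axis from 0. Points are single libraries (circles A, triangles B) of the LOVA, NTC and PTC groups, with 2 libraries a group, and lines are group means. For Ccn1, Ccn2, Ankrd1, Amotl1, Amotl2, Axl and F3 both PTC libraries lie below all others, and PTC A is the lowest; for Ajuba both PTC libraries lie above the rest.

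Without GDNF, 7 of the 10 genes rose and none fell, and the largest differences were in the secreted and surface proteins F3, Ccn2 and Ccn1 and in the nuclear protein Ankrd1. The comparison of NTC with PTC asks what leaving out GDNF changed. Among all genes tested, 21.5% were called higher and 12.9% lower in NTC, and the median log2 fold change was -0.02 over all genes and 2.25 over the 10. In bulk RNA, fewer cells of a type and less RNA of a gene per cell cannot be told apart. The share of fibroblast markers moved in the same direction as these 7 genes, and its part in their differences was not tested.

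Ccn1 encodes a secreted matricellular protein of the CCN family that binds integrins and is an immediate early gene. It lies on chromosome 3 from 145646976 to 145649981 (GRCm38, as are all gene positions here). It stood at 478 and 618 CPM in LOVA, 483 and 631 CPM in NTC, and 31.2 and 126 CPM in PTC. Both NTC libraries lay far above both PTC libraries, and the PTC libraries differed 4.05-fold from each other. Ccn1 was 7.06-fold higher in NTC, a log2 fold change of 2.82 with a standard error (SE) of 0.62 and a 95% interval of 1.31 to 4.33 (edgeR quasi-likelihood test, Benjamini-Hochberg adjusted p = 0.0213).

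Ccn2, the connective tissue growth factor gene on chromosome 10 (24595442 to 24598683), encodes the sister protein and promotes matrix production in fibroblasts. It had 167 and 273 CPM in LOVA, 242 and 383 CPM in NTC, and 9.84 and 65.7 CPM in PTC. The groups NTC and PTC did not overlap, but PTC B had 6.68 times the level of PTC A. The log2 fold change of NTC over PTC was 3.04 (SE 0.84, adjusted p = 0.0359), which is 8.24-fold. An antisense gene, Gm15270, shares 665 exon bases with Ccn2 and had 2 to 10 counts per library.

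F3, tissue factor, is the membrane protein that starts blood coagulation. It lies on chromosome 3 from 121723537 to 121735048. It had 135 and 274 CPM in LOVA, 193 and 292 CPM in NTC, and 6.14 and 32.1 CPM in PTC. This was the widest gap among the 10 genes: F3 was 12.6-fold higher in NTC, with a log2 fold change of 3.65 (SE 0.79, 95% interval 1.73 to 5.58, adjusted p = 0.0205).

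Ankrd1, on chromosome 19 (36111961 to 36120099), encodes an ankyrin repeat protein of the nucleus and the muscle sarcomere that YAP induces in many cell types. It was the scarcest of the 10, at 5.05 and 9.79 CPM in LOVA, 7.08 and 13.4 CPM in NTC, and 0.188 and 2.09 CPM in PTC. The PTC values rest on 3 and 49 counts, so the first of them is at the floor. Ankrd1 rose in NTC by a log2 fold change of 3.09 (SE 0.88, 95% interval 0.99 to 5.20, adjusted p = 0.0373).

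Among the feedback genes, the angiomotin-like pair rose and the other members did not pass the test. Amotl1 (chromosome 9, 14541966 to 14645056) had 84.6 and 171 CPM in LOVA, 81.1 and 135 CPM in NTC, and 16.0 and 32.7 CPM in PTC. Amotl2, a neighbour in function on the same chromosome (102716672 to 102733418), had 165 and 290 CPM in LOVA, 186 and 272 CPM in NTC, and 54.9 and 88.7 CPM in PTC. Both had NTC libraries above both PTC libraries, with log2 fold changes of 2.15 (SE 0.49, adjusted p = 0.0224) for Amotl1 and 1.67 (SE 0.36, adjusted p = 0.0181) for Amotl2.

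Lats2 (chromosome 14, 57689662 to 57758388) varied least, at 125 and 176 CPM in LOVA, 119 and 151 CPM in NTC, and 99.5 and 107 CPM in PTC. Its NTC libraries lay above its PTC libraries by a narrow margin, and the log2 fold change of 0.39 did not pass the test (SE 0.22, 95% interval -0.13 to 0.90, adjusted p = 0.2006). Lats2 shares 2955 exon bases with Gm49361 on the same strand, a gene with no values used here, so how reads of that stretch were assigned is not known.

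Ajuba (chromosome 14, 54567472 to 54577558) was the 1 gene whose NTC libraries both lay below both PTC libraries. It had 51.6 and 20.7 CPM in LOVA, 48.6 and 23.9 CPM in NTC, and 57.9 and 60.4 CPM in PTC. The PTC libraries were nearly level, while the B library stood at 0.401 of the A library in LOVA and at 0.491 of it in NTC. The log2 fold change of NTC over PTC was -0.71 and did not pass the test (SE 0.48, 95% interval -1.86 to 0.44, adjusted p = 0.2805). The same edgeR test without the filter on low counts called Ajuba lower in NTC (adjusted p = 0.0236).

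Of the receptors and surface proteins, Axl rose and Crim1 did not pass the test. Axl, a receptor tyrosine kinase of the TAM family on chromosome 7 (25757273 to 25788705), had 161 and 306 CPM in LOVA, 172 and 256 CPM in NTC, and 26.7 and 57.5 CPM in PTC. Its log2 fold change in NTC was 2.35 (SE 0.47, 95% interval 1.20 to 3.49), with the smallest adjusted p of the 10 genes, 0.0170. Crim1, a membrane protein with cysteine-rich repeats that binds bone morphogenetic proteins (chromosome 17, 78200248 to 78376592), had 34.5 and 64.9 CPM in LOVA, 38.6 and 45.1 CPM in NTC, and 27.2 and 37.1 CPM in PTC. Its groups NTC and PTC were separated by a gap smaller than the spread within either, and the log2 fold change was 0.38 (SE 0.33, 95% interval -0.39 to 1.15, adjusted p = 0.387). Crim1 shares 123 exon bases with Fez2 on the opposite strand, which had 262 to 609 counts per library.

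Both NTC libraries lay above both PTC libraries for 9 of the 10 genes, as they did for 39% of all genes tested, and below them for Ajuba, as for 38.5% of all genes. The count of 7 genes that rose depended on single libraries and fell in some of the fits that left 1 library out. The median log2 fold change over the 10 was then 1.88 without NTC B and 1.81 without PTC A. It was 2.55 without NTC A, 2.88 without PTC B and 2.25 without LOVA A or LOVA B. The count was 3 when the NTC and PTC libraries were fitted alone. That fit called 6829 of all genes tested, against 5558 in the fit of all libraries.

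With lovastatin in place of GDNF, 5 of the 10 genes were higher than with GDNF, again with none lower: F3, Ccn1, Axl, Amotl1 and Amotl2. Among all genes 19.8% were called higher in LOVA than in PTC and 10.8% lower, and the median log2 fold change was 0.00 over all genes and 2.43 over the 10. This comparison uses the same PTC libraries as the last one, so their results are not independent. F3 averaged 204 ± 98.1 CPM in LOVA and 19.1 ± 18.4 CPM in PTC (SD, n = 2 each), a log2 fold change of 3.40 (SE 0.79, 95% interval 1.50 to 5.31, adjusted p = 0.0270). Ccn1 averaged 548 ± 99.1 CPM in LOVA and 78.8 ± 67.4 CPM in PTC, and its difference on the log2 scale was 2.80 (SE 0.62, adjusted p = 0.0254). In both genes the PTC spread was about as large as the PTC mean, and the LOVA libraries still lay above it.

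Axl averaged 233 ± 103 CPM in LOVA and 42.1 ± 21.8 CPM in PTC, and its difference on the log2 scale was 2.47 (SE 0.48, adjusted p = 0.0198). The angiomotin-like genes had log2 fold changes of 2.39 (SE 0.49, adjusted p = 0.0222) for Amotl1 and 1.66 (SE 0.36, adjusted p = 0.0227) for Amotl2. Ccn2 and Ankrd1 had LOVA libraries above both PTC libraries but missed the threshold, with log2 fold changes of 2.53 (SE 0.82, 95% interval 0.55 to 4.52, adjusted p = 0.0593) for Ccn2 and 2.62 (SE 0.88, 95% interval 0.53 to 4.72, adjusted p = 0.0615) for Ankrd1. DESeq2 called both, with an adjusted p of 0.0401 for Ccn2 and 0.00839 for Ankrd1. It thus called 7 of the 10 genes higher, as it did 3681 of the 16121 genes tested, with 38% of these called in either direction.

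Lats2 had a log2 fold change of 0.54 in LOVA over PTC (95% interval 0.02 to 1.06, adjusted p = 0.0978), and Crim1, whose LOVA and PTC libraries overlapped, had 0.63 (95% interval -0.15 to 1.40, adjusted p = 0.1735). Ajuba had the same log2 fold change as in NTC, -0.71 (95% interval -1.86 to 0.44, adjusted p = 0.282). Both LOVA libraries lay above both PTC libraries for 8 of the 10 genes, against 38.4% of all genes tested, and below them for Ajuba, against 37.9%. The count of 5 was 0 without LOVA B, when 649 of all genes tested were called, 0 without PTC A, when 0 of all genes were, and 3 without NTC B, when 3024 were, against 4939 of all genes with every library. With the column letter as a block, 9 of the 10 genes were called higher. So were 4280 of the 16121 genes tested, and 48% of them were called in either direction. Ccn2 (adjusted p = 0.0249), Ankrd1 (adjusted p = 0.00108), Lats2 (adjusted p = 0.0180) and Crim1 (adjusted p = 0.0334) then passed the test as well.

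**Figure D2:**
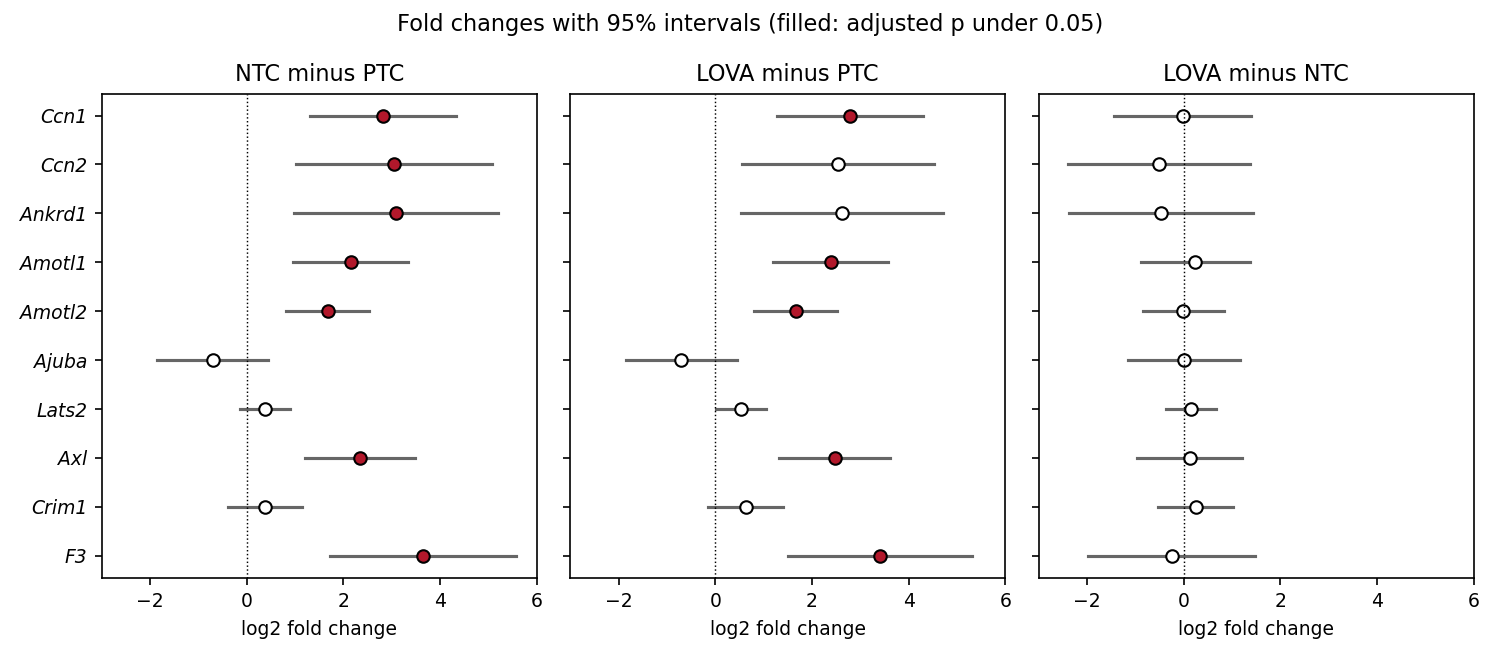
Log2 fold changes of the 10 genes in the 3 comparisons, with the 95% interval of each from the edgeR fit as a horizontal line; filled points passed the test and open points did not. LOVA over NTC runs over -0.51 for Ccn2 to 0.25 for Crim1, and all 10 intervals include 0, while F3 lies farthest to the right in both comparisons with PTC.

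Lovastatin was set against the absence of GDNF directly in LOVA over NTC, the comparison in which only the drug differs. None of the 10 genes passed the test and none had groups that did not overlap, against 25.6% of all genes tested whose LOVA and NTC libraries did not overlap. edgeR's quasi-likelihood test called 0% of all 16121 genes in this comparison, while 561 of them, 3.48%, had an unadjusted p under 0.05, DESeq2 called 120, or 0.744%, and edgeR with the column letter as a block called 90, or 0.558%. None of the 10 genes was among any of these. The median log2 fold change was -0.00 over the 10 and 0.01 over all genes.

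The sizes still allowed by the data differ between the genes. The narrowest interval was that of Lats2, with a log2 fold change of 0.15 and a 95% interval of -0.36 to 0.67. Crim1 stood at 0.25 (-0.53 to 1.02) and Amotl2 at -0.01 (-0.84 to 0.83). For these 3 genes a difference of much more than 2-fold in either direction lies outside the interval.

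The other intervals were wider. The log2 fold change of LOVA over NTC was 0.12 (-0.96 to 1.21) for Axl, 0.24 (-0.89 to 1.37) for Amotl1, -0.00 (-1.16 to 1.16) for Ajuba and -0.02 (-1.43 to 1.38) for Ccn1. F3 stood at -0.25 (-1.98 to 1.48), Ankrd1 at -0.47 (-2.37 to 1.43) and Ccn2 at -0.51 (-2.39 to 1.37). For Ccn2, F3 and Ankrd1 the LOVA mean was below the NTC mean, at 220 ± 75.1 CPM in LOVA and 313 ± 99.8 CPM in NTC for Ccn2 (SD, n = 2 each), but the libraries of both groups overlapped. A miss of the threshold at this width does not show that lovastatin left the genes as they were.

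Levels can be compared between the genes only per length, so CPM was divided by the exon length in kilobases (RPKM). Without GDNF the order in NTC was Ccn1 (276 RPKM), Ccn2 (109), F3 (96.0), Axl (42.6), Amotl2 (36.4), Lats2 (19.4), Amotl1 (10.7), Ajuba (9.95), Crim1 (6.98) and Ankrd1 (3.55), as group mean levels. In NTC the libraries of neighbours overlapped for Ccn2 and F3, for Axl and Amotl2, for Amotl1 and Ajuba, and for Ajuba and Crim1, so those places are not settled. In LOVA the order was the same except that F3 (80.8 RPKM) stood before Ccn2 (76.8), a pair whose libraries also overlapped. Ccn1 led in LOVA with 271 RPKM and stood apart from every other gene in both groups.

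In PTC the order of levels was different. Ccn1 led with 39.0 ± 33.4 RPKM (SD, n = 2), and its libraries overlapped with those of Ajuba, at 16.2 ± 0.482. Lats2 came next at 14.8 ± 0.755 RPKM, followed by Ccn2 (13.2), Amotl2 (11.4), Axl (8.36), F3 (7.57), Crim1 (5.36), Amotl1 (2.42) and Ankrd1 (0.394). From Lats2 down to Crim1 the libraries of each gene overlapped with those of the next. Ajuba and Lats2 thus stood at the 2nd and 3rd place with GDNF, and at the 8th and 6th without it.

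The difference between the 2 libraries of a group was set beside that of the fibroblast markers. Across groups these markers moved in the same direction as the 7 of the 10 genes that rose in NTC over PTC. The fibroblast share in B over A was 4.84-fold in PTC, 1.63-fold in NTC and 1.86-fold in LOVA. In PTC the same ratio of CPM was 4.05 for Ccn1, 6.68 for Ccn2 and 5.23 for F3, and 11.1 for Ankrd1, whose PTC A value rests on 3 counts and whose exact 95% counting interval is 3.58 to 55.7, but 2.15 for Axl, 2.04 for Amotl1, 1.62 for Amotl2, 1.36 for Crim1, 1.07 for Lats2 and 1.04 for Ajuba. The GDNF libraries thus differed in Ccn1, Ccn2 and F3 by ratios on either side of that of the fibroblast markers, and hardly in Lats2 and Ajuba.

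Counts of each gene per 1000 counts of fibroblast markers put the same fact on 1 scale. Ccn1 had 35.1 and 22.2 in LOVA, 30.7 and 22.9 in NTC, and 29.8 and 24.3 in PTC, a highest over lowest ratio of 1.58 over the 6 libraries. Ccn2 had 12.2 and 9.79 in LOVA, 15.4 and 13.9 in NTC, and 9.39 and 12.6 in PTC, a ratio of 1.64. These 2 genes were within 2-fold over all libraries, as were 333 of the 11825 genes whose mean CPM reached 5 (2.82%), where the median ratio was 29.9. F3 had 9.89 and 9.81 in LOVA, 12.3 and 10.6 in NTC, and 5.86 and 6.17 in PTC, a ratio of 2.09.

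Of the other genes, some kept nearly as steady a ratio once PTC A, the library with the lowest fibroblast share, was left out. Axl had 11.8 and 11.0 per 1000 in LOVA, 11.0 and 9.29 in NTC, and 25.5 and 11.0 in PTC, and the highest over lowest ratio was 2.71 for Ankrd1, 2.74 for Axl, 3.12 for Amotl1 and 5.31 for Amotl2. It was 15.9 for Crim1, 17.4 for Lats2 and 74.4 for Ajuba. Without PTC A, a choice made after seeing the data, it was 1.38 for Ankrd1, 1.27 for Axl, 1.28 for Amotl1, 1.73 for Amotl2, 1.58 for Ccn1, 1.57 for Ccn2 and 1.99 for F3. These 7 genes were then within 2-fold, as were 11.6% of the 11825 genes, while Lats2 had 3.76, Crim1 4.35 and Ajuba 15.6. Set against 1000 counts of the pan-germ-cell markers instead, Ajuba had 13.8 and 9.03 in LOVA, 15.3 and 10.5 in NTC, and 10.9 and 11.2 in PTC, a ratio of 1.69. It was the 1 gene of the 10 within 2-fold on that scale, on which 33.8% of the same 11825 genes were, and Lats2 had a ratio of 4.08. Germ cells and fibroblasts were not separated, so which cells hold each transcript was not measured.

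**Figure D3:**
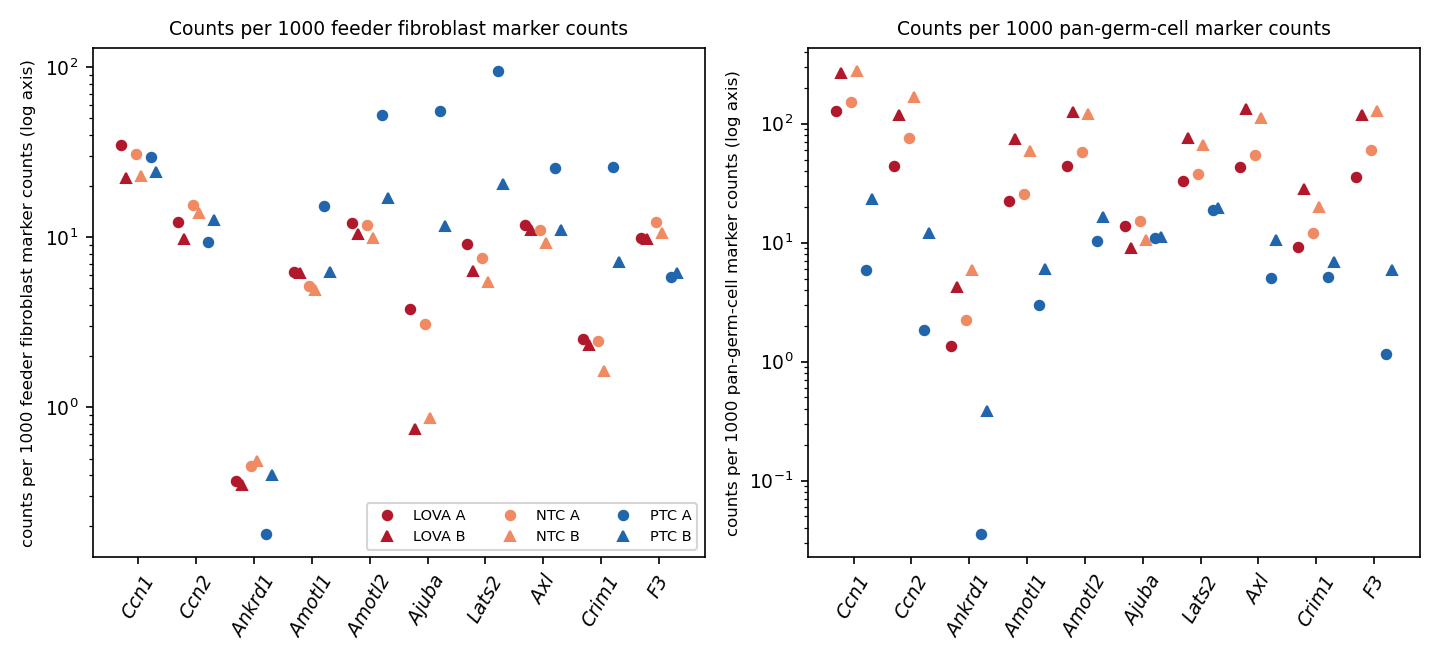
Counts of each of the 10 genes per 1000 counts of fibroblast markers (left) and of pan-germ-cell markers (right) in each library, on log axes; circles are A and triangles B libraries of LOVA, NTC and PTC. On the left Ccn1, between 22.2 and 35.1, and Ccn2 are nearly level over the 6 libraries and Ajuba is spread widest; on the right Ajuba, between 9.03 and 15.3, is the most level.

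The calls depend on that scale. With libraries scaled to the fibroblast marker counts, the median log2 fold change of all genes moved by -3.49 in NTC over PTC and by -3.37 in LOVA over PTC, so a value has to be read against that shift. On that scale the log2 fold change of NTC over PTC was -0.01 for Ccn1, 0.41 for Ccn2, 0.62 for Ankrd1 and 0.93 for F3 (adjusted p = 0.482), and none of the 10 genes was called higher. Axl was then at -0.85, Amotl1 at -1.10 and Amotl2 at -1.68, without passing the test, and Ajuba (-4.08, adjusted p = 0.0106), Lats2 (-3.15, adjusted p = 0.0270) and Crim1 (-3.01, adjusted p = 0.0272) were called lower. Scaled to pan-germ-cell markers, where the median of all genes moved by 1.01, the same 7 genes were called higher and Ajuba turned to 0.23.

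The factors that act on these targets were measured in the same libraries. Transcripts of YAP, TAZ and TEAD3 rose in both comparisons with PTC, and those of TAZ and TEAD3 by more than that of YAP. Yap1 had 143 and 212 CPM in LOVA, 132 and 192 CPM in NTC, and 78.4 and 99.8 CPM in PTC, with log2 fold changes of 1.00 in LOVA over PTC (adjusted p = 0.0365) and 0.86 in NTC over PTC (adjusted p = 0.0496). Wwtr1 had 90.6 and 187 CPM in LOVA, 99.3 and 142 CPM in NTC, and 15.8 and 31.4 CPM in PTC, with log2 fold changes of 2.55 in LOVA over PTC (adjusted p = 0.0181) and 2.35 in NTC over PTC (adjusted p = 0.0158). Both genes were lowest in the PTC libraries without overlap.

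Of the 4 TEAD genes only Tead3 passed the test without a block in these 2 comparisons, with 30.0 and 40.6 CPM in LOVA, 32.2 and 38.1 CPM in NTC, and 7.20 and 7.20 CPM in PTC. Its log2 fold change was 2.29 in both LOVA over PTC (adjusted p = 0.0167) and NTC over PTC (adjusted p = 0.00805). Tead1 had 0.96 (adjusted p = 0.0904), Tead2 -0.59 (adjusted p = 0.0659) and Tead4 0.53 (adjusted p = 0.409) in NTC over PTC. In LOVA over PTC Tead1 had 1.21 (adjusted p = 0.0518), Tead2 -0.65 (adjusted p = 0.0558) and Tead4 1.03 (adjusted p = 0.133). Tead2 was thus the one with a higher level in both PTC libraries. With the letter as a block Tead1 was called higher in LOVA over PTC (adjusted p = 0.000502) and in NTC over PTC (adjusted p = 0.00150), and Tead2 lower in LOVA over PTC (adjusted p = 0.00446) and in NTC over PTC (adjusted p = 0.00677).

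The fourth gene called in the list of YAP, TAZ, TEAD and VGLL genes was Vgll3, a TEAD cofactor, with 70.3 and 184 CPM in LOVA, 77.4 and 121 CPM in NTC, and 2.51 and 15.1 CPM in PTC. Its log2 fold change was 3.83 in LOVA over PTC (adjusted p = 0.0265) and 3.48 in NTC over PTC (adjusted p = 0.0277). Of the 10 listed genes 8 were tested, and 4 rose and none fell in each of these comparisons. The median log2 fold change was 1.12 in LOVA over PTC and 0.91 in NTC over PTC. Over all genes tested, 19.8% were called higher and 10.8% lower in LOVA over PTC, and 21.5% and 12.9% in NTC over PTC. In LOVA over NTC none passed the test, with Yap1 at 0.14, Wwtr1 at 0.20, Tead1 at 0.26, Tead2 at -0.05, Tead3 at 0.01 and Tead4 at 0.50 on the log2 scale.

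Further YAP and TAZ targets, a list of 22 genes that were all tested, had members called higher in both comparisons with PTC. In NTC over PTC 14 of the 22 rose and 1 fell, with a median log2 fold change of 2.21. In LOVA over PTC 13 rose and 1 fell, with a median of 2.17. Over all genes tested, 21.5% were called higher and 12.9% lower in NTC over PTC, and 19.8% and 10.8% in LOVA over PTC. Ccdc80, a matrix protein gene, led in NTC over PTC with 3.90 (adjusted p = 0.0141), at 62.2 and 127 CPM in LOVA, 102 and 209 CPM in NTC, and 4.70 and 15.9 CPM in PTC. Inhba, the activin A subunit gene, led in LOVA over PTC with 3.99 (adjusted p = 0.0259), against 3.72 in NTC over PTC (adjusted p = 0.0250).

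Rbms3, an RNA-binding protein gene, had a log2 fold change of 3.78 in LOVA over PTC (adjusted p = 0.0249) and 3.32 in NTC over PTC (adjusted p = 0.0272). Igfbp3, which encodes a carrier of insulin-like growth factors, had 3.34 in NTC over PTC (adjusted p = 0.0209), and Tgfb2, a transforming growth factor gene, had 3.25 in LOVA over PTC (adjusted p = 0.0225). The gene that fell was Dock5, which encodes an activator of the GTPase Rac, named here because it was the only one and after its values were seen. It had 51.4 and 39.0 CPM in LOVA, 42.1 and 45.1 CPM in NTC, and 111 and 101 CPM in PTC, with log2 fold changes of -1.23 in LOVA over PTC (adjusted p = 0.0167) and -1.28 in NTC over PTC (adjusted p = 0.0102).

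Upstream kinases and scaffolds of the Hippo pathway were called in both directions, without a block at shares not far from those of all genes. Of 21 such genes 3 rose and 2 fell in NTC over PTC, with a median log2 fold change of 0.13, beside 21.5% of all genes called higher and 12.9% lower. In LOVA over PTC 5 rose and 3 fell, with a median of 0.37, beside 19.8% of all genes called higher and 10.8% lower. With the letter as a block 5 rose and 6 fell in NTC over PTC, and 10 rose and 5 fell in LOVA over PTC. With that block, 4421 of the 16121 genes tested were called higher and 3632 lower in NTC over PTC. In LOVA over PTC they were 4280 and 3466. Without the block, those that rose in both were the atypical cadherins Fat4 and Dchs1, a receptor and ligand pair, and Limd1, a LIM protein related to Ajuba. Fat4 had log2 fold changes of 3.21 in LOVA over PTC (adjusted p = 0.0389) and 2.85 in NTC over PTC (adjusted p = 0.0472). Dchs1 had 2.38 in LOVA over PTC (adjusted p = 0.0183) and 2.16 in NTC over PTC (adjusted p = 0.0169), and Limd1 had 1.57 in LOVA over PTC (adjusted p = 0.0171) and 1.54 in NTC over PTC (adjusted p = 0.0125).

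Stk4, the core kinase MST1, fell in both, with 163 and 103 CPM in LOVA, 159 and 120 CPM in NTC, and 270 and 274 CPM in PTC. Its log2 fold change was -1.03 in LOVA over PTC (adjusted p = 0.0280) and -0.96 in NTC over PTC (adjusted p = 0.0294). The other gene that fell in NTC was Taok2, a kinase that activates MST kinases, at -0.65 (adjusted p = 0.0274, and also lower in LOVA over PTC with the letter as a block, adjusted p = 0.0256), named after its values were seen. The 2 most abundant genes of the list, Map4k4 and Mob1a, had log2 fold changes of -0.04 and 0.07 in LOVA over NTC.

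Genes of SRF, the other transcription factor that reads actin dynamics, were listed because they share inputs with YAP and TAZ. The list holds SRF and actin target genes together with Srf itself and its cofactor genes Mrtfa and Mrtfb. Of 20 genes 13 rose and 1 fell in NTC over PTC, with a median log2 fold change of 2.21. In LOVA over PTC 12 rose and 1 fell, with a median of 1.66. The shares of all genes called higher and lower were 21.5% and 12.9% in NTC over PTC, and 19.8% and 10.8% in LOVA over PTC. Fhl2, a LIM-only cofactor gene, had 3.55 in LOVA over PTC (adjusted p = 0.0234) and 3.78 in NTC over PTC (adjusted p = 0.0172). Cald1, an actin-binding protein gene, had 3.33 in LOVA over PTC (adjusted p = 0.0291) and 2.97 in NTC over PTC (adjusted p = 0.0326), and Tagln, the smooth muscle protein transgelin, had 2.73 in LOVA over PTC (adjusted p = 0.0411) and 3.30 in NTC over PTC (adjusted p = 0.0244).

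Acta2, smooth muscle actin, rose in NTC over PTC by 3.32 (adjusted p = 0.0455) and had 2.83 in LOVA over PTC without passing the test (adjusted p = 0.0709), although it passed with the letter as a block (adjusted p = 0.0173). Filip1l, a filamin-interacting protein gene, had 3.33 in LOVA over PTC (adjusted p = 0.0167). The gene that fell, named after its values were seen, was Mrtfb, which encodes an actin-sensing SRF cofactor and was not listed as a target. It had -0.69 in LOVA over PTC (adjusted p = 0.0327) and -0.80 in NTC over PTC (adjusted p = 0.0206).

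None of the genes in these 4 lists passed the test in LOVA over NTC. The median log2 fold change there was 0.06 for the further targets, 0.17 for YAP, TAZ, TEAD and VGLL genes, 0.16 for Hippo kinases and scaffolds and -0.02 for the SRF list. Examples of abundant genes were Fstl1 at 0.08 and Igfbp3 at -0.44 among the further targets, and Flna at 0.15 and Cald1 at 0.35 in the SRF list.

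Marker genes of 3 cell types also differed between the groups, and their part in the values of these lists was not tested. Of the 20 fibroblast markers 13 rose in each comparison with PTC (20 with the letter as a block), with median log2 fold changes of 2.82 in LOVA over PTC and 2.98 in NTC over PTC. Of the 20 pan-germ-cell markers 9 fell and 1 rose in LOVA over PTC, and 13 fell in NTC over PTC, while with the block 17 fell in LOVA over PTC and 19 in NTC over PTC. Of the 10 macrophage markers 2 rose in LOVA over PTC (5 with the block), with a median of 0.82. All 10 rose in NTC over PTC, with a median of 2.93. Without the block, 19.8% of all genes were called higher and 10.8% lower in LOVA over PTC, and 21.5% and 12.9% in NTC over PTC. With the block, 4280 of the 16121 genes tested were called higher and 3466 lower in LOVA over PTC, and 4421 and 3632 in NTC over PTC. In LOVA over NTC none of the macrophage markers passed the test without the block. With it 8 were called lower, as were 72 of all genes tested. All 10 had an unadjusted p under 0.05 in edgeR without the block, with a median log2 fold change of -2.21.

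With libraries scaled to the fibroblast markers, 38 of all genes tested were called higher in NTC than in PTC and 11736 lower, and none of the genes in the 4 lists was among those called higher. Without NTC B none of the list genes was called in NTC over PTC, where 1 of all genes was, and without PTC A none was called in LOVA over PTC, where 0 of all genes were. Ptpn14 stands both in the list of further targets and in that of Hippo scaffolds.

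**Figure D4:**
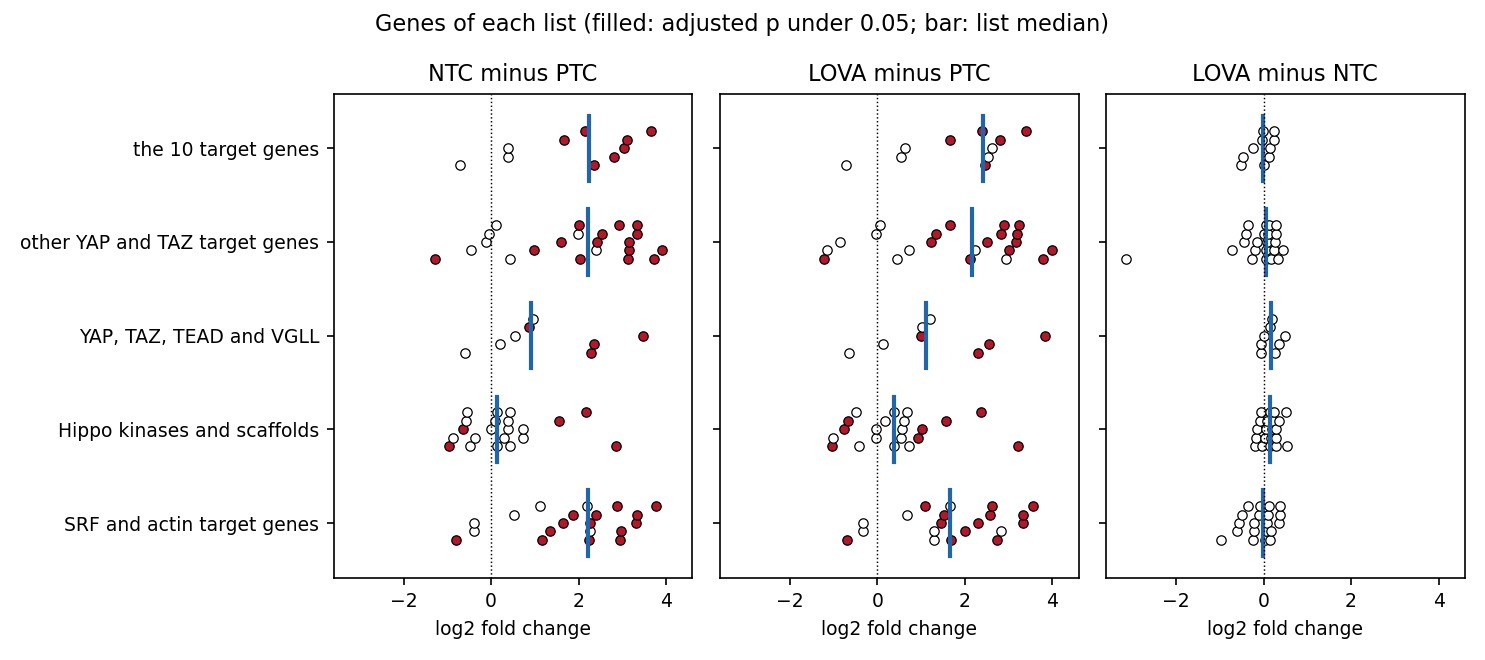
Log2 fold changes of every tested gene of the 10 targets and 4 pathway lists (rows) in the 3 comparisons (panels); each point is a gene, filled where it passed the test, and the vertical bar is the list's median. In LOVA over NTC all medians lie between -0.02 and 0.17, and in the comparisons with PTC the target and SRF lists lie farthest to the right, at medians of 1.66 to 2.43.

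To see which other genes share the pattern, the log2 CPM of each gene was centred over the 6 libraries and the root mean square (RMS) difference from the mean profile of the 10 genes was taken, over 11815 other genes whose mean CPM reached 5. The nearest were Lmna, the nuclear lamin A gene (RMS difference 0.0651), Tgfbi, a matrix protein gene (0.0753), Klf6, a zinc finger factor gene (0.0848), Rab12, a small GTPase gene (0.104), and Ufm1, which encodes a ubiquitin-like modifier (0.113). Lmna had 170 and 276 CPM in LOVA, 201 and 289 CPM in NTC, and 35.4 and 94.9 CPM in PTC. Among the 10 themselves, Amotl1 (0.248), Axl (0.252) and Amotl2 (0.262) lay closest to their mean profile and Ajuba (1.55) farthest from it.

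The single nearest gene differed for almost every member. It was S100a10, an annexin-binding protein gene, for Ccn1 (RMS log2 difference 0.0905), and Itga11, a collagen-binding integrin subunit gene, for both Ccn2 (0.111) and Ankrd1 (0.0605). F3 had as its nearest Loxl1, a collagen and elastin cross-linking enzyme gene (0.0697) that is also on the fibroblast marker list. Axl lay nearest to Ehd2 (0.0538), a gene of membrane trafficking, Amotl1 to the chromatin remodeller gene Smarca2 (0.0583) and Amotl2 to Tbc1d9b (0.0387).

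The remaining 3 members paired with genes that also varied little between groups or ran the other way. Lats2 lay nearest to Wwc2 (0.0348), a scaffold of the Hippo pathway that binds the LATS kinases, with 122 and 162 CPM in LOVA, 115 and 138 CPM in NTC, and 95.8 and 98.8 CPM in PTC. Ajuba lay nearest to Mef2b (0.0734), a MADS-box factor gene, with 19.1 and 7.73 CPM in LOVA, 19.4 and 9.40 CPM in NTC, and 21.4 and 20.6 CPM in PTC. Crim1 lay nearest to Rsrc1 (0.0875), a splicing-related gene. These likenesses rest on 6 libraries in which the fibroblast share also varies.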

How the data were processed

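Gene expression was measured by RNA sequencing of 6 mouse libraries prepared with a strand-specific kit, per the labels' protocols. The authors deposited counts of reads per Ensembl gene as whole numbers that were not normalized. Trimmomatic, Bowtie2, RSEM, DESeq2 and mm10 are named without versions or roles in the submitters' processing notes. RSEM gives estimated counts, so rounding before deposit is possible, and the table does not settle it. Columns carry letters A and B, the labels carry replicate numbers, and nothing ties these to each other.

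Symbols, positions and exon lengths came from GENCODE M21, which matched 31363 of 31384 identifiers. Genes were kept by filterByExpr on the 3 groups, scaled by TMM and tested in edgeR 4.0.16 (quasi-likelihood F test, robust, legacy form) with 1 coefficient per group over all 6 libraries, leaving 3 residual degrees of freedom and a common biological coefficient of variation of 0.260. Calls needed a p under 0.05 after Benjamini-Hochberg adjustment over all 16121 genes tested. Log2 CPM used a prior count of 2. R 4.3.3, limma 3.58.1 and DESeq2 1.42.0 were used.

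Named genes were the 10 targets, YAP, TAZ and TEAD genes, up to 4 called genes of each list with the largest change (2 abundant genes where none was called) and the nearest patterns. One of the lists is not reported here. The targets, lists and tests were chosen with earlier results of these data known. Alternatives were DESeq2, its size factors, no filter on low counts, a fit of the compared groups only, scaling to fibroblast or germ cell markers, a block by letter and leaving out each library. Libraries of the same letter deviated together: deviations of B libraries from their group means correlated at 0.37 for LOVA and NTC, 0.29 for LOVA and PTC and 0.25 for NTC and PTC over 16121 genes. The letters come from the deposited columns, and what they share is not stated, so the fit without the block stayed the main one. The counts of the lists under these settings were added after seeing the data.

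The test was also run on simulated counts for the same 16121 genes, with a change put into 200 of them. At 4-fold it found 94% for NTC over PTC, 89% for LOVA over NTC and 87% for LOVA over PTC. At 2-fold it found 11%, 14% and 4%, in the same order. It called 7, 2 and 3 unchanged genes, and 0 had the wrong sign. Every simulated gene was drawn with the common biological coefficient of variation of 0.260. The shares thus do not give the chance of a call for a gene with a wide spread. In LOVA over NTC the SE was 0.77 for Ccn2, 0.71 for F3 and 0.80 for Ankrd1. For the rest of the 10 it ran from 0.22 for Lats2 to 0.58 for Ccn1.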

Additional observations from a re-analysis of the deposited data

How the results depend on the processing

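In NTC over PTC the 7 called genes of the 10 became 3 when only these groups were fitted and 3, all lower, when scaled to fibroblast markers; in LOVA over PTC the 5 called became 8 without a filter on low counts (7 higher and 1 lower), 9 with the replicate block by letter and 3, all lower, scaled to fibroblast markers. All genes called in NTC over PTC numbered 5558 (3472 higher, 2086 lower), 11774 scaled to fibroblast markers (38 higher, 11736 lower) and 5280 scaled to germ cell markers (5238 higher, 42 lower). In LOVA over PTC they numbered 4939 (3192 higher, 1747 lower), 11456 scaled to fibroblast markers (23 higher, 11433 lower), 4083 scaled to germ cell markers (4046 higher, 37 lower) and 7746 with the replicate block. In LOVA over NTC, where edgeR called 0 genes, 191 were called without a filter, 90 with the replicate block and 120 by DESeq2 (561 had an unadjusted p under 0.05 in edgeR), and none of the 10 genes in any of these. The cause of these differences was not tested.

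Scaled to fibroblast markers, log2 fold changes that turned in NTC over PTC were -0.0116 for Ccn1, -1.10 for Amotl1, -1.68 for Amotl2, -3.15 for Lats2, -0.85 for Axl and -3.01 for Crim1. In LOVA over PTC they were -0.000457 for Ccn2, -0.80 for Amotl1, -1.62 for Amotl2, -2.90 for Lats2, -0.68 for Axl and -2.76 for Crim1, and in LOVA over NTC 0.0944 for Ccn1, 0.0556 for Amotl2 and 0.19 for Ajuba. Scaled to germ cell markers, Ajuba turned to 0.0493 in LOVA over PTC and 0.23 in NTC over PTC. These scalings moved the median of all genes in LOVA over NTC by 0.13 (fibroblast) and -0.11 (germ cell).

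Leaving out each library in turn gave 0 to 7 of the 10 genes in NTC over PTC (all genes 1 to 6799), 0 to 7 in LOVA over PTC (all genes 0 to 6844) and 0 to 0 in LOVA over NTC (all genes 0 to 2). A group left with 1 library was assumed to vary like the others. In LOVA over NTC the log2 fold change then ranged from -0.24 to 0.18 for Ccn1, -1.02 to 0.0638 for Ankrd1, -0.35 to 0.66 for Amotl1, -0.47 to 0.34 for Amotl2, -0.81 to 0.57 for Ajuba, -0.11 to 0.38 for Lats2, -0.41 to 0.51 for Axl, -0.28 to 0.63 for Crim1 and -0.85 to 0.17 for F3, all of which include both signs, and from -0.91 to -0.14 for Ccn2, which kept its sign. In the comparisons with PTC each of the 10 kept its sign in these fits.

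The replicate block by letter gave 7 of the 10 genes and 8053 of all genes in NTC over PTC. Among the 10 genes it changed calls in LOVA over PTC and in no other comparison.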

Other observations

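Partners of the 10 genes followed their direction in part. The other CCN family genes tested, Ccn3, Ccn4 and Ccn5, were all higher in LOVA and in NTC than in PTC. Of all genes tested, 19.8% were called higher in LOVA than in PTC and 21.5% in NTC than in PTC. Ccn5 had 21.8 and 44.3 CPM in LOVA, 48.5 and 69.3 CPM in NTC, and 1.00 and 3.19 CPM in PTC, with log2 fold changes of 3.93 in LOVA over PTC (adjusted p = 0.0167) and 4.76 in NTC over PTC (adjusted p = 0.00870). In NTC over PTC Ccn4 had 3.21 (adjusted p = 0.0441) and Ccn3 had 3.13 (adjusted p = 0.0366).

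Both ligands of the TAM receptors were higher than in PTC, while the receptors other than Axl did not pass the test without a block. Gas6, the ligand of AXL, had 1290 and 2143 CPM in LOVA, 1596 and 2184 CPM in NTC, and 90.5 and 221 CPM in PTC, a log2 fold change of 3.46 in LOVA over PTC (adjusted p = 0.0167) and 3.60 in NTC over PTC (adjusted p = 0.00963). Pros1, protein S, had 3.16 in LOVA over PTC (adjusted p = 0.0278) and 3.34 in NTC over PTC (adjusted p = 0.0220). In NTC over PTC Tyro3 had -0.37 (adjusted p = 0.228) and Mertk 1.29 (adjusted p = 0.0741, or 0.0237 with the letter as a block).

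Of 6 tested coagulation partners of F3, 5 rose and none fell in LOVA over PTC, and 5 rose and 1 fell in NTC over PTC. The shares over all genes were 19.8% higher and 10.8% lower in LOVA over PTC, and 21.5% and 12.9% in NTC over PTC. The inhibitors of tissue factor rose with it: Tfpi2 had 12.3 and 26.8 CPM in LOVA, 15.9 and 26.4 CPM in NTC, and 0.313 and 2.17 CPM in PTC (log2 fold change 4.01 in NTC over PTC, adjusted p = 0.0164), and Tfpi had 3.29 (adjusted p = 0.0127). Thbd, thrombomodulin, had 3.34 in NTC over PTC (adjusted p = 0.0149) and F2r, a thrombin receptor, had 2.89 (adjusted p = 0.0188). F2rl1, a related receptor named after its values were seen, had -1.40 (adjusted p = 0.0218). None of the genes of these 3 lists passed the test in LOVA over NTC, and all the fold changes in this section come with the fibroblast marker shares given above, whose part in them was not tested.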
